A study of Mus musculus with 9 samples.

Results

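Ribosome biogenesis was followed through a list of 40 genes of ribosome production and the nucleolus. All 40 were found by symbol among the 16200 genes of the counts table. The list was drawn up with earlier results of these data known, so it was not tested as a set. All 40 passed the filter on low counts, so no member was left out of the tests. They were measured by RNA sequencing in macrophages that had been differentiated from wild-type (WT) mouse bone marrow over 6 days in the presence of L929 supernatant, the medium of a fibroblast line that supplies macrophage growth factor. The 9 libraries comprise 3 untreated ones, 3 from macrophages treated for 12 h with IL-4 at 20 ng/ml, and 3 from macrophages treated for 6 h with IL-27 at 100 ng/ml. Interleukin-4 is the classical cytokine of alternative macrophage activation, and interleukin-27 is a cytokine of the IL-12 family. The dose and time of each cytokine come from a treatment text shared by all samples, which leaves unstated if IL-4 was also present in the IL-27 cultures, and the time of harvest of the untreated cells is not stated. Because the cytokines were given for different times, cytokine and time cannot be told apart in any comparison of IL-27 with IL-4 cells. Strain, sex, age and the number of animals are not stated, and the origin of the 3 libraries within a group is not stated either. The p-values therefore reflect the spread among libraries alone, and that spread may be technical.

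Ribosomes are built in the nucleolus. RNA polymerase I transcribes the ribosomal DNA into a long precursor, which is modified by small nucleolar ribonucleoproteins (snoRNPs), cut and folded with ribosomal proteins into the small (40S) and large (60S) subunits. The box C/D snoRNPs methylate ribosomal RNA and the box H/ACA snoRNPs turn uridine into pseudouridine. A large assembly called the small subunit processome handles the 40S side, and a separate set of factors the 60S side. These genes are classically tied to cell growth, and many are known targets of Myc, a transcription factor that binds the sequence CACGTG (an E-box).

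Promoter windows from RefSeq (GRCm38.p6, an older build than the one named for the counts), spanning 250 bases before to 50 bases after a transcript start, were matched by symbol for 35 of the 40 members. Npm1, Rrs1, Bop1, Fbl and Rrp12 had no entry. The E-box CACGTG, which reads the same on both strands, was present in 7 of 35 members (20.0%), against 11.7% of tested genes with a window and 8.09% of all genes with a window. The ETS-family sequence CCGGAAG, searched on both strands, was present in 13 members (37.1%), against 20.1% and 9.93%. CATGCGC, a core of the NRF1 motif, was found in 3 members (8.57%, against 7.91% and 4.41%), and AAGATGG, a core of the YY1 motif, in 0 members (against 8.36% and 7.28%), both on both strands. A gene counted once if any of its windows held the letters, and no motif overlaps another by its letters in the stretches shown. The last 100 bases before the start are printed below for 5 members that are described later by value, with E-box and ETS matches in capitals. Matches outside a stretch or across its end are not marked. Rrn3 has such matches, an E-box that starts at -215 and ETS matches that start at -5 and 19 from the transcript start. They are Nop2 at chr6:125131783-125131882 (plus strand), Rrn3 at chr16:13780599-13780698 (plus strand), Gar1 at chr3:129831397-129831496 (minus strand), Nhp2 at chr11:51619673-51619772 (plus strand) and Utp4 at chr8:106893540-106893639 (plus strand). Nop2 and Rrn3 are shown because they hold the E-boxes that lie before the start, and the others as examples of members with ETS matches in these 100 bases. Brix1, Heatr1, Ltv1, Nolc1 and Polr1c also hold such ETS matches and are not shown.
Nop2: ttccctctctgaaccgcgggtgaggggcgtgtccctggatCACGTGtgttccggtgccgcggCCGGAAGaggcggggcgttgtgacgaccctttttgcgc
Rrn3: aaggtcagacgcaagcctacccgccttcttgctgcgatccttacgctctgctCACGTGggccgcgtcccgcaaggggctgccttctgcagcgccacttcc
Gar1: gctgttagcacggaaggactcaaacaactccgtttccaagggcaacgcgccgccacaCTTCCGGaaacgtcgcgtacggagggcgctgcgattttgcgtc
Nhp2: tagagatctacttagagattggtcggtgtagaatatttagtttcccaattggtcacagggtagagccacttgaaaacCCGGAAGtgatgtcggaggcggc
Utp4: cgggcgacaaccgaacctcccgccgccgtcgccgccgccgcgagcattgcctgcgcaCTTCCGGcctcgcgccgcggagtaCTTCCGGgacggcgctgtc

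The libraries held 34577188 to 37951827 counts, and members took 0.139 to 0.272% of them. Levels are given as CPM, the counts scaled to library size after TMM normalisation. Values of 3 libraries are given in the order of replicates 1, 2 and 3, numbers that the labels do not explain. Untreated replicate 2 and IL-4 replicate 1 stood apart from the other libraries of their groups. Per gene, the chi-square between replicates was 121 to 152 for pairs that include either library and 6.04 to 10.2 for pairs that include neither. Among members, 37 deviated from their group mean to the same side in both libraries, 21 below and 16 above, and the deviations correlated at r = 0.930 over the 40 genes of this pair of libraries, a description with no test. Over all genes with a mean of 5 CPM or more the same pair correlated at r = 0.9, so the shared deviation was not particular to members. Member calls that these 2 libraries change are therefore given with all 9 libraries and without them. The 2 libraries were picked by their deviations in these same data. Leaving them out removes the largest deviations and leaves fewer untreated and IL-4 libraries. Adjusted p-values without them are therefore likely too small, and calls without them are descriptions only. The macrophage markers Adgre1, Csf1r, Cd68, Itgam, Lyz2, Fcgr1 and Mertk were all present, with summed levels of 22740.0 to 31420.0 CPM in untreated, 14450.0 to 18050.0 CPM in IL-4 and 24050.0 to 26110.0 CPM in IL-27 libraries. Markers of fibroblasts and stroma (Col1a1, Col1a2, Col3a1, Pdgfra and Dcn, all 5 above 0) summed to 679.6 to 772 CPM, 508 to 713 CPM and 1044 to 1306 CPM in the same order, and those of the 5 other cell types to at most 13.3 CPM per type, with no listed marker found in the table at 0 in all libraries. In bulk RNA, a change in the share of a cell type and a change in RNA per cell cannot be told apart.

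On the deposited FPKM scale, which divides by gene length and so allows genes to be compared, member means over the 9 libraries ran from 2.36 to 147, with a median of 11.4, against 3.01 for all 16200 genes. Npm1, which encodes the abundant nucleolar chaperone nucleophosmin, was highest at 147 FPKM. Nhp2, Ncl, Fbl and Nop10 followed at 44.6, 42.7, 42.5 and 38.4 FPKM, and Wdr12 and Rrp1b, both of the 60S side, were lowest at 2.77 and 2.36 FPKM. The highest member therefore stood well apart from the others, while snoRNP core proteins filled 3 of the next 4 places. In the annotation columns deposited by the authors, 34 of 40 members carried the term nucleolus, a term held by 4.42% of all genes in the table, and 21 carried rRNA processing. Polr1a, Polr1c, Nop56, Gar1, Nop10 and Ltv1 lacked the nucleolus term there.

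Under IL-4, genes of every step of ribosome production were higher than in untreated cells, and no member was called lower. Of 40 members 31 rose at an edgeR Benjamini-Hochberg adjusted p under 0.05, 0 fell and 9 did not pass. Among all 12587 genes tested, 25.0% were called in either direction, 12.9% higher and 12.0% lower. The median log2 fold change was 0.55 over the members (1.46-fold) and -0.01 over all genes tested, and members ranged from -0.17 to 1.21. In 34 members all 3 IL-4 libraries lay above all 3 untreated libraries, as they did in 17.8% of all genes tested. Without untreated replicate 2 and IL-4 replicate 1, 39 of 40 members were called higher, where 24.0% of all genes were. With only untreated and IL-4 libraries in the fit 19 members and 1154 of all genes were called higher (31 and 1630 in the fit of all 9), and at an adjusted p under 0.01 17 members. Leaving out 1 library at a time kept 18 of the 31 calls in every one of the 9 fits. Beside this result, the macrophage marker Lyz2 had lower levels in the IL-4 libraries (10583, 8889 and 8747 CPM, against 16557, 23216 and 17038 CPM) and carried most of the lower marker sum. Fcgr1 (31.2, 34.9 and 31.9 CPM, against 79.3, 99.9 and 82.5 CPM) and Mertk (127, 115 and 115 CPM, against 192, 224 and 201 CPM) were also lower without overlap. Cd68 (1955, 1398 and 1324 CPM, against 1306, 2071 and 1383 CPM) and Itgam (1663, 1478 and 1446 CPM, against 1377, 1539 and 1346 CPM) overlapped between the groups, as did Adgre1 and Csf1r. The part of these markers in the result was not tested.

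Under IL-27, 26 members rose, 1 fell and 13 did not pass, against 29.2% of all genes called in either direction, 14.0% higher and 15.1% lower. The median log2 fold change was 0.54 over the members (1.46-fold) and 0.00 over all genes, with members from -0.41 to 1.39. All 3 IL-27 libraries lay above all 3 untreated libraries in 32 members and below them in 1, and the shares over all genes were 26.2% and 26.0%. Without the 2 libraries that stood apart 33 members were called higher, where 24.2% of all genes were, and 1 lower, where 25.3% were. At an adjusted p under 0.01 17 members were higher and 0 lower. Leaving out 1 library at a time kept 19 of the 27 calls in every one of the 9 fits. The stromal markers were higher in the IL-27 libraries (1044 to 1306 CPM, against 679.6 to 772 CPM). The macrophage marker sum, mostly Lyz2, overlapped between IL-27 and untreated libraries, but Csf1r (1439, 1373 and 1429.7 CPM, against 2416, 3268 and 2503 CPM), Adgre1 (543, 557 and 553 CPM, against 817, 1006 and 809.9 CPM) and Mertk (89.8, 94.0 and 90.6 CPM, against 192, 224 and 201 CPM) were lower without overlap, as were Itgam and Fcgr1. The part of these markers in the result was not tested. This comparison uses the same 3 untreated libraries as the one with IL-4, which can raise the number of joint calls for any genes. The share of all genes called higher in both comparisons was not computed, so the joint counts are descriptions only. Of the members, 24 were called higher in both comparisons, 6 (Polr1a, Fbl, Nob1, Pes1, Wdr12 and Nop16) under IL-4 with no call under IL-27, and 2 (Gnl3 and Noc3l) under IL-27 with no call under IL-4. Nop10 was called higher under IL-4 and lower under IL-27, and Polr1b, Polr1c, Ncl, Npm1, Bysl, Bop1 and Brix1 were called in neither.

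**Figure D1:**
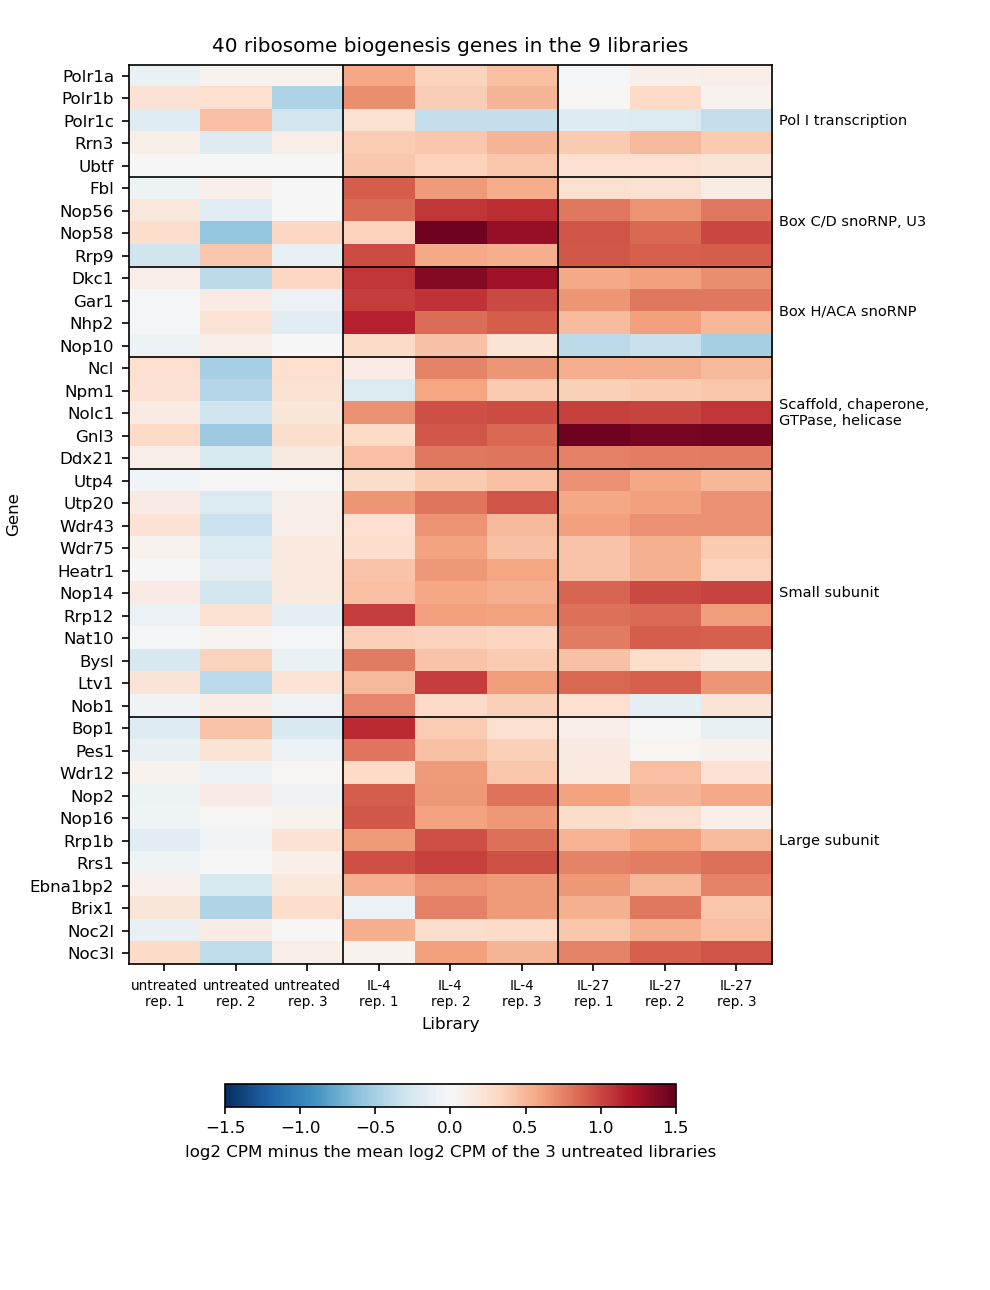
Each row is a member, each column a library, and the colour is the log2 CPM minus the mean log2 CPM of the 3 untreated libraries, with members grouped by role. Most rows turn red in the IL-4 and IL-27 columns, Nop10 turns blue in the 3 IL-27 columns, and untreated replicate 2 and IL-4 replicate 1 differ from their neighbours in many rows.

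The genes of ribosomal DNA transcription had the smallest median log2 fold change of the 6 roles under IL-4 and under IL-27. Rrn3, which recruits RNA polymerase I to the promoter, stood at 32.9, 27.0 and 33.2 CPM in the untreated, 40.2, 41.0 and 44.0 CPM in the IL-4 and 40.5, 43.2 and 40.6 CPM in the IL-27 libraries. It rose 1.34-fold under IL-4 (edgeR adjusted p = 0.0135) and 1.33-fold under IL-27 (edgeR adjusted p = 0.0132), with no overlap with the untreated libraries in either comparison. Ubtf, the architectural factor that keeps ribosomal genes open, rose by 0.39 ± 0.07 (log2 ± SE) under IL-4 and by 0.23 ± 0.07 under IL-27 (edgeR adjusted p = 0.00304 and 0.0338). Polr1a, the largest subunit of the enzyme, rose by 0.46 ± 0.10 under IL-4 (edgeR adjusted p = 0.00688) and had a log2 fold change of 0.05 ± 0.10 under IL-27 (edgeR adjusted p = 0.712). Polr1c, a subunit that RNA polymerases I and III share, stood at 30.3, 47.1 and 28.3 CPM in the untreated, 40.3, 26.7 and 26.8 CPM in the IL-4 and 29.9, 29.5 and 26.8 CPM in the IL-27 libraries. The pair of libraries that stood apart held its highest values, and neither cytokine gave a call (log2 fold change -0.17 ± 0.21 and -0.30 ± 0.21, or -0.13 and -0.04 without that pair). Polr1b, the second largest subunit, had 0.50 ± 0.19 and 0.10 ± 0.19 without a call, and rose under IL-4 without the 2 libraries that stood apart (log2 fold change 0.53, edgeR adjusted p = 0.00679). Leaving out untreated replicate 2 alone gave Polr1b that call too (edgeR adjusted p = 0.0455). The IL-4 call of Rrn3 was lost without IL-4 replicate 3 (edgeR adjusted p = 0.0549) and its IL-27 call without IL-27 replicate 2 (0.0572). The IL-27 call of Ubtf held only in the fits without IL-4 replicate 1 or 2 and was lost in the other 7 (edgeR adjusted p from 0.0566 to 0.113).

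All 4 genes of the box C/D snoRNPs and of the related U3 particle rose under IL-4, and 3 of 4 under IL-27. The shares of all genes tested that rose were 12.9% and 14.0%. Fbl encodes fibrillarin, the methyltransferase of the box C/D particle, and stood at 45.5, 50.9 and 48.1 CPM in the untreated, 90.1, 74.8 and 71.0 CPM in the IL-4 and 56.7, 56.6 and 52.2 CPM in the IL-27 libraries. Every IL-4 library lay above every other library, and Fbl rose 1.63-fold under IL-4 (edgeR adjusted p = 0.00103). Under IL-27 its log2 fold change was 0.20 ± 0.11 (edgeR adjusted p = 0.2), and 0.23 without the 2 libraries that stood apart, where it was called (edgeR adjusted p = 0.00431). Nop56 and Nop58, the paired scaffold proteins of the same particle, had the largest rises of this role under IL-4. Nop56 stood at 33.6, 26.8 and 29.8 CPM in the untreated, 53.8, 63.1 and 64.6 CPM in the IL-4 and 51.8, 47.6 and 51.7 CPM in the IL-27 libraries, a 2.01-fold rise under IL-4 and 1.68-fold under IL-27 (edgeR adjusted p = 0.000166 and 0.000845). Nop58 stood at 22.9, 12.7 and 23.6 CPM in the untreated, 24.1, 52.3 and 47.1 CPM in the IL-4 and 36.4, 34.6 and 38.1 CPM in the IL-27 libraries, with untreated replicate 2 and IL-4 replicate 1 lowest in their groups. It rose 2.09-fold and 1.84-fold (edgeR adjusted p = 0.0241 and 0.0454), and without these 2 libraries by 1.10 and 0.64 on the log2 scale. Rrp9, a protein of the U3 particle, rose by 0.68 ± 0.19 under IL-4 and 0.88 ± 0.19 under IL-27 (edgeR adjusted p = 0.0262 and 0.00649). The IL-4 call of Nop58 was lost without IL-4 replicate 2 or 3 (adjusted p by edgeR of 0.0796 to 0.0859), and its IL-27 call without any 1 library except IL-4 replicates 1 and 2 (adjusted p by edgeR of 0.0534 to 0.118). Rrp9 lost its IL-4 call without untreated replicate 1, untreated replicate 3 or IL-4 replicate 1 (adjusted p by edgeR of 0.0556 to 0.0917).

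The 4 core proteins of the box H/ACA particle, which also belong to telomerase, all rose under IL-4, while under IL-27 3 rose and 1 fell. Of all genes tested 12.9% rose under IL-4, and under IL-27 14.0% rose and 15.1% fell. Dkc1 encodes dyskerin, the pseudouridine synthase of the particle, and stood at 10.6, 7.50 and 12.3 CPM in the untreated, 20.8, 25.9 and 23.8 CPM in the IL-4 and 14.8, 15.3 and 16.1 CPM in the IL-27 libraries. It had the largest rise of all members under IL-4 (2.31-fold, edgeR adjusted p = 0.000729), and rose 1.51-fold under IL-27 (edgeR adjusted p = 0.0259). Gar1 stood at 9.45, 10.5 and 9.10 CPM in the untreated, 19.9, 20.4 and 19.2 CPM in the IL-4 and 15.3, 16.8 and 16.8 CPM in the IL-27 libraries. Its 3 groups did not overlap, with IL-4 highest and IL-27 between, and it rose 2.05-fold and 1.68-fold (edgeR adjusted p = 9.69e-05 and 0.000545). Nhp2, which binds the RNA of the particle together with dyskerin, stood at 29.8, 35.1 and 27.1 CPM in the untreated, 68.3, 54.4 and 57.1 CPM in the IL-4 and 42.4, 46.8 and 43.1 CPM in the IL-27 libraries. The rises were 1.95-fold under IL-4 and 1.44-fold under IL-27 (edgeR adjusted p = 0.000399 and 0.0106), again with IL-27 between the other groups. Nop10, the smallest of the 4 proteins, stood at 26.8, 30.0 and 28.1 CPM in the untreated, 34.6, 38.2 and 32.5 CPM in the IL-4 and 21.5, 22.3 and 20.0 CPM in the IL-27 libraries. All IL-27 libraries lay below, and all IL-4 libraries above, the untreated range. It fell by 0.41 ± 0.10 on the log2 scale under IL-27 (edgeR adjusted p = 0.0122) and rose by 0.31 ± 0.10 under IL-4 (edgeR adjusted p = 0.0455). Both calls of Nop10 held without the 2 libraries that stood apart, with log2 fold changes of -0.37 and 0.37 (edgeR adjusted p = 0.00116 and 0.00253). The IL-4 rise of Nop10 lost its call in 8 of the 9 fits, all but the one without untreated replicate 2 (edgeR adjusted p from 0.0529 to 0.153). Its IL-27 fall lost the call without IL-27 replicate 3 (edgeR adjusted p = 0.0565), and the IL-27 rise of Dkc1 without untreated replicate 1 or any 1 IL-27 library (edgeR adjusted p from 0.0552 to 0.0869).

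**Figure D2:**
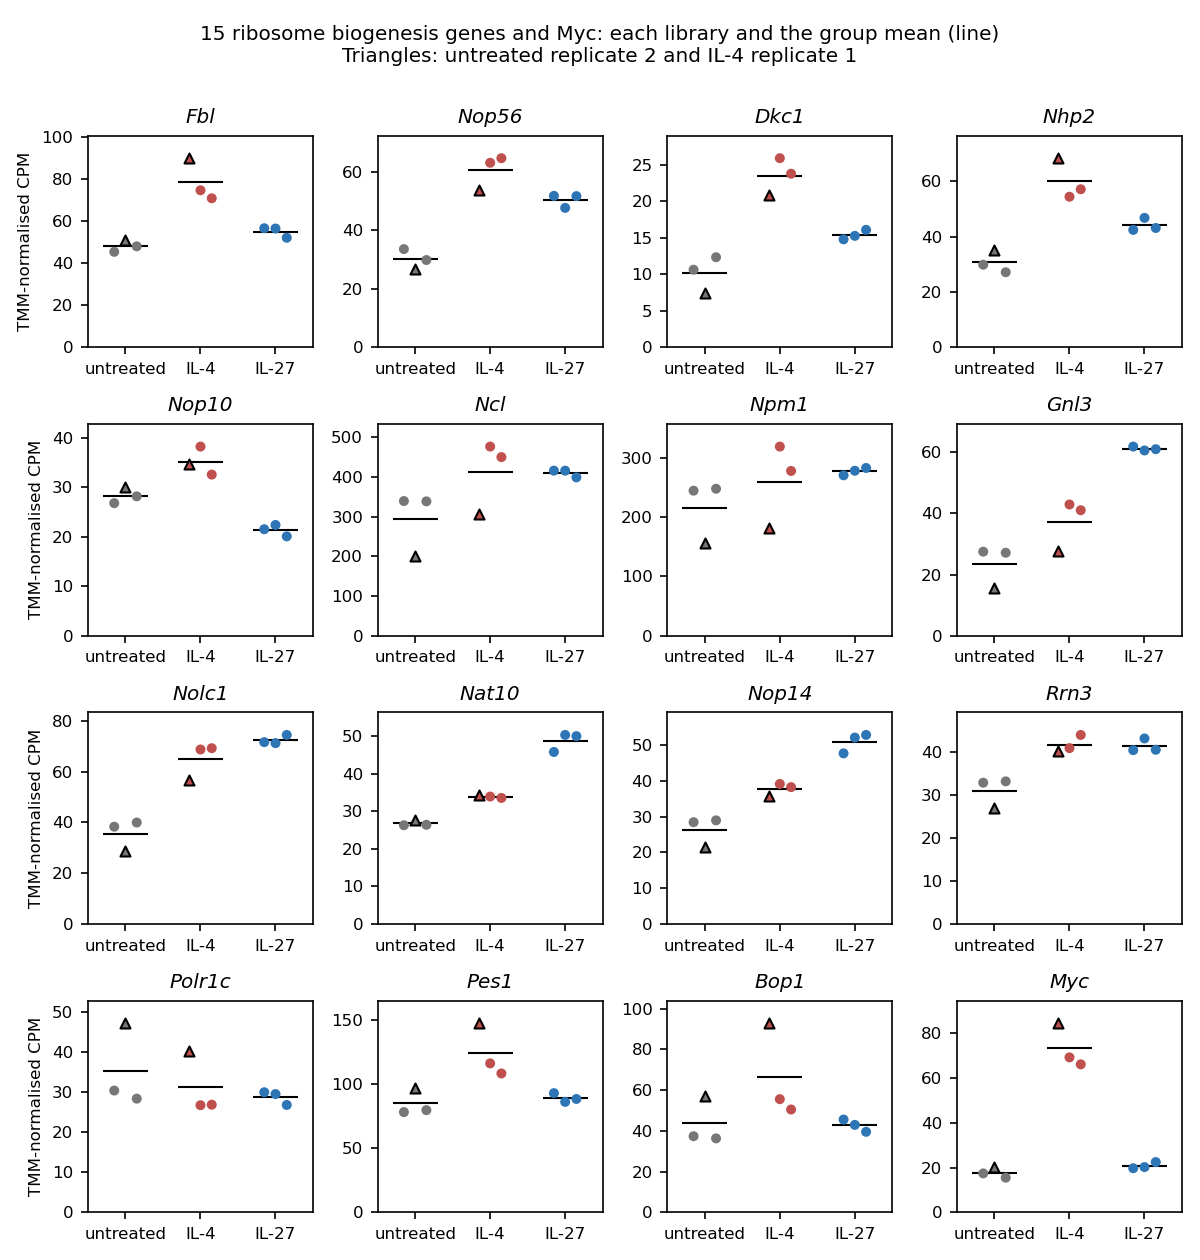
TMM-normalised CPM of 15 members and of Myc in each of the 9 libraries, from 0, with a line at the group mean and triangles for untreated replicate 2 and IL-4 replicate 1. In Gnl3, Nat10 and Nop14 the IL-27 points lie above all others, in Nop10 below all others, and Myc is high in the 3 IL-4 libraries.

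Among nucleolar scaffold, chaperone, GTPase and helicase genes, Nolc1 and Ddx21 rose under both cytokines and Gnl3 had the largest change of all members under IL-27. Gnl3 encodes nucleostemin, a nucleolar GTPase linked to growing and stem cells, and stood at 27.5, 15.5 and 27.1 CPM in the untreated, 27.9, 42.9 and 41.1 CPM in the IL-4 and 61.9, 60.6 and 61.1 CPM in the IL-27 libraries. The IL-27 libraries were close together and above all 6 others. It rose 2.62-fold under IL-27 (edgeR adjusted p = 0.00122), while the IL-4 difference of 0.67 ± 0.22 had an edgeR adjusted p of 0.0504. Without the 2 libraries that stood apart the log2 fold changes were 1.16 and 0.62, and both were called (edgeR adjusted p = 3.04e-13 and 1.5e-07). Leaving out IL-4 replicate 1 alone also gave the IL-4 call (edgeR adjusted p = 0.00998). Nolc1, which carries snoRNPs between the nucleolus and the Cajal bodies, stood at 38.3, 28.6 and 39.98 CPM in the untreated, 56.8, 68.8 and 69.3 CPM in the IL-4 and 71.6, 71.3 and 74.5 CPM in the IL-27 libraries. Both cytokine groups lay above the untreated one, with rises of 1.82-fold and 2.03-fold (edgeR adjusted p = 0.00121 and 0.000365). The RNA helicase gene Ddx21, whose product acts in ribosomal RNA transcription and processing, rose 1.60-fold and 1.69-fold (edgeR adjusted p = 0.00305 and 0.00133). Ncl, which encodes nucleolin, and Npm1 had the highest FPKM of this role and gave no call with all 9 libraries. Ncl stood at 339, 201 and 338 CPM in the untreated, 307, 476 and 449.7 CPM in the IL-4 and 416, 416 and 399 CPM in the IL-27 libraries. The lowest untreated and the lowest IL-4 value belonged to the libraries that stood apart, and the log2 fold changes were 0.49 ± 0.21 and 0.48 ± 0.21 (edgeR adjusted p = 0.12 and 0.11). Npm1 stood at 244, 155 and 248 CPM in the untreated, 182, 319 and 278 CPM in the IL-4 and 270.3, 278 and 283 CPM in the IL-27 libraries. Its log2 fold changes were 0.27 ± 0.21 and 0.36 ± 0.21 (edgeR adjusted p = 0.412 and 0.239). Without these 2 libraries Ncl rose by 0.45 and 0.27 (edgeR adjusted p = 1.08e-08 and 7.69e-06), and Npm1 by 0.28 and 0.17 (edgeR adjusted p = 0.000163 and 0.00841), on the log2 scale under IL-4 and IL-27. Without IL-4 replicate 1 alone Ncl was called under IL-4 and under IL-27 (edgeR adjusted p = 0.0215 and 0.0434). Npm1 has many processed pseudogenes, and the counting of shared reads is not described, so its level is uncertain.

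On the small subunit side, 10 of 11 members rose under IL-4 and 9 of 11 under IL-27, and none fell. Among all genes tested 12.9% and 14.0% rose, and 12.0% and 15.1% fell. Nop14, a core protein of the processome, stood at 28.4, 21.7 and 29.0 CPM in the untreated, 35.8, 39.1 and 38.2 CPM in the IL-4 and 47.7, 52.1 and 52.8 CPM in the IL-27 libraries. The 3 groups did not overlap, and Nop14 rose 1.43-fold under IL-4 and 1.93-fold under IL-27 (edgeR adjusted p = 0.0111 and 0.000298). Nat10, the enzyme that acetylates cytidines of the small subunit RNA, stood at 26.3, 27.6 and 26.4 CPM in the untreated, 34.2, 33.9 and 33.5 CPM in the IL-4 and 45.8, 50.3 and 49.97 CPM in the IL-27 libraries. It showed the same order, with rises of 1.27-fold and 1.82-fold (edgeR adjusted p = 0.0146 and 5.28e-05), and its IL-27 p was the smallest of all members. Utp20, Rrp12, Ltv1 and Heatr1 rose by 0.80 ± 0.12, 0.76 ± 0.15, 0.71 ± 0.19 and 0.55 ± 0.11 (log2) under IL-4, with edgeR adjusted p from 0.000832 to 0.0207. Under IL-27 these genes rose by 0.62 ± 0.12, 0.76 ± 0.15, 0.79 ± 0.19 and 0.43 ± 0.11, with edgeR adjusted p from 0.00306 to 0.0128. Utp20 and Heatr1 are large scaffold proteins of the processome, and Rrp12 and Ltv1 act in the maturation and export of the pre-40S particle. Utp4, Wdr43 and Wdr75 belong to the subcomplex that links the processome to transcription. Utp4 rose by 0.37 ± 0.10 and 0.59 ± 0.10, Wdr43 by 0.47 ± 0.15 and 0.65 ± 0.15 and Wdr75 by 0.43 ± 0.13 and 0.45 ± 0.13 under IL-4 and IL-27, with edgeR adjusted p from 0.00149 to 0.0458.

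Nob1, the endonuclease that makes the last cut of 18S ribosomal RNA, stood at 17.8, 19.9 and 17.8 CPM in the untreated, 30.8, 22.6 and 23.7 CPM in the IL-4 and 22.1, 16.9 and 21.1 CPM in the IL-27 libraries. IL-27 values overlapped the untreated range while IL-4 values lay above it, and Nob1 rose by 0.47 ± 0.15 under IL-4 (edgeR adjusted p = 0.0423) with 0.11 ± 0.15 under IL-27 (edgeR adjusted p = 0.611). Bysl, another late 40S factor, had log2 fold changes of 0.52 ± 0.17 and 0.27 ± 0.17 with no call, and without the 2 libraries that stood apart it rose by 0.58 and 0.45 (edgeR adjusted p = 0.00019 and 0.00104). Bysl was also called under IL-4 without untreated replicate 2 alone (edgeR adjusted p = 0.00693). Several of the IL-4 calls on this side did not hold in every fit without 1 library. Leaving out 1 library ended those of Utp4 (untreated replicate 1, IL-4 replicate 2 or 3), Nat10 (untreated replicate 1 or 3) and Ltv1 (IL-4 replicate 2), with edgeR adjusted p from 0.0524 to 0.0763. The IL-4 call of Wdr43 was lost without untreated replicate 2 or 3, IL-4 replicate 2 or 3 or any 1 IL-27 library, and that of Wdr75 without untreated replicate 1 or 2, IL-4 replicate 2 or 3, or IL-27 replicate 1 or 3 (edgeR adjusted p from 0.0509 to 0.151). Nob1 lost its call without untreated replicate 1 or 3, IL-4 replicate 1 or 3, or IL-27 replicate 1 or 3 (edgeR adjusted p from 0.0573 to 0.119). Under IL-27 the call of Wdr75 was lost without untreated replicate 1 or 2 or any 1 IL-27 library (edgeR adjusted p from 0.0532 to 0.0913), and that of Heatr1 without IL-27 replicate 2 (0.0611).

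Large subunit factors rose in 8 of 11 members under IL-4 and in 6 of 11 under IL-27, where 12.9% and 14.0% of all genes did. Rrs1, a carrier of the 5S particle into the pre-60S, had the smallest edgeR adjusted p of all members under IL-4 (3.23e-05) and rose 1.98-fold and 1.71-fold (IL-27 edgeR adjusted p = 0.000101). Nop2, the methyltransferase of the large ribosomal RNA, rose 1.73-fold and 1.47-fold, and Rrp1b and Ebna1bp2, nucleolar 60S assembly proteins, rose by 0.81 ± 0.14 and 0.61 ± 0.12 under IL-4 and by 0.53 ± 0.14 and 0.62 ± 0.12 under IL-27 (log2). The edgeR adjusted p of these 3 genes ran from 0.000373 to 0.0178. Pes1, Bop1 and Wdr12 form the PeBoW complex, which is needed for processing of the 60S RNAs. Pes1 stood at 78.4, 97.5 and 79.9 CPM in the untreated, 148, 116 and 109 CPM in the IL-4 and 93.2, 86.3 and 88.6 CPM in the IL-27 libraries. Its IL-4 values lay above all others while IL-27 values fell within the untreated range, with a 1.46-fold rise under IL-4 (edgeR adjusted p = 0.0131) and 0.07 ± 0.13 under IL-27 (edgeR adjusted p = 0.732). Bop1 stood at 37.4, 57.3 and 36.3 CPM in the untreated, 92.8, 55.6 and 50.5 CPM in the IL-4 and 45.6, 43.0 and 39.6 CPM in the IL-27 libraries. Untreated replicate 2 lay above 2 of the 3 IL-4 libraries, and the log2 fold changes of 0.60 ± 0.24 and -0.03 ± 0.24 gave no call (edgeR adjusted p = 0.0978 and 0.932). Without the 2 libraries that stood apart Bop1 rose by 0.53 under IL-4 and by 0.21 under IL-27 (edgeR adjusted p = 6.98e-06 and 0.025). With all 9 libraries its IL-27 value was near 0 and had no clear direction, and the untreated library left out held its highest untreated value. Leaving out untreated replicate 2 alone gave the IL-4 call of Bop1 (edgeR adjusted p = 0.0201). Without both libraries Pes1 rose under IL-27 as well, by 0.17 (edgeR adjusted p = 0.0124). Wdr12 rose by 0.46 ± 0.12 under IL-4 (edgeR adjusted p = 0.0229) and had 0.28 ± 0.12 under IL-27 (edgeR adjusted p = 0.119).

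Noc2l and Noc3l, are partners in the transport of pre-60S particles. Noc2l stood at 77.8, 91.1 and 84.8 CPM in the untreated, 123, 102 and 103 CPM in the IL-4 and 113, 122 and 115 CPM in the IL-27 libraries, and rose by 0.37 ± 0.10 and 0.46 ± 0.10 (edgeR adjusted p = 0.024 and 0.00691). Noc3l stood at 14.4, 9.07 and 12.6 CPM in the untreated, 12.3, 18.1 and 16.8 CPM in the IL-4 and 19.7, 21.9 and 22.6 CPM in the IL-27 libraries. All IL-27 libraries lay above the other 6, with a 1.78-fold rise (edgeR adjusted p = 0.00888), and the IL-4 difference was 0.39 ± 0.19 (edgeR adjusted p = 0.174). Without the libraries that stood apart Noc3l rose under both (0.37 and 0.66, edgeR adjusted p = 0.00943 and 9.77e-06), and without IL-4 replicate 1 alone the IL-4 value was called (0.0415). Nop16, a 60S factor known as a Myc target, rose by 0.74 ± 0.11 under IL-4 (edgeR adjusted p = 0.00119) and had 0.20 ± 0.11 under IL-27 (edgeR adjusted p = 0.228). Brix1 had 0.45 ± 0.24 and 0.56 ± 0.24 with no call, and rose under both without the libraries that stood apart (0.48 and 0.36, edgeR adjusted p = 0.00103 and 0.00492) and under both without IL-4 replicate 1 alone (0.0274 and 0.0315). The IL-4 calls of Pes1 and Noc2l were lost without untreated replicate 1 or 3, and that of Wdr12 without any 1 untreated library or IL-4 replicate 2 or 3 (adjusted p by edgeR of 0.0521 to 0.0933). Rrp1b lost its IL-27 call without untreated replicate 1 or IL-27 replicate 1 or 2 (edgeR adjusted p from 0.0514 to 0.0703).

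**Figure D3:**
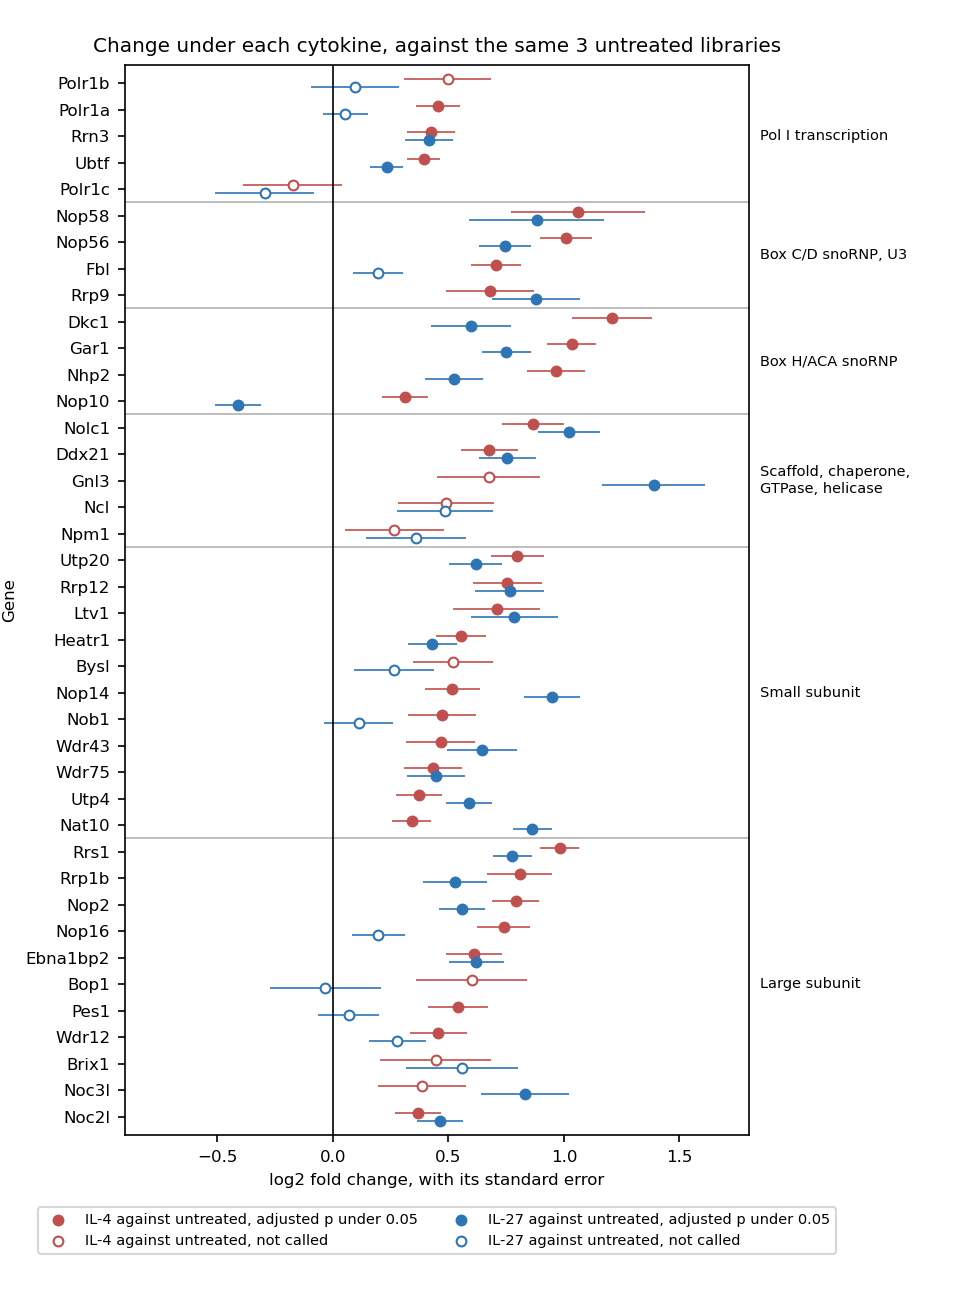
log2 fold changes of the 40 members against the same 3 untreated libraries under IL-4 (red) and IL-27 (blue), with bars of 1 standard error and filled points for an edgeR adjusted p under 0.05. Most points lie to the right of 0 under both cytokines, Gnl3 and Dkc1 reach the highest values under IL-27 and IL-4, and Nop10 lies on either side of 0.

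Set directly against each other, IL-27 and IL-4 libraries differed in 10 of 40 members, 3 higher and 7 lower under IL-27, with 30 that did not pass. Over all genes tested 39.8% were called in either direction, 18.8% higher and 21.0% lower, and the median log2 difference was -0.14 over the members and 0.01 over all genes. Gnl3, Nat10 and Nop14 were the members called higher under IL-27, by 0.71 ± 0.22, 0.52 ± 0.08 and 0.43 ± 0.12 (log2, edgeR adjusted p = 0.0263, 0.000722 and 0.0168). Lower under IL-27 were Nop10 (-0.72 ± 0.10), Dkc1 (-0.61 ± 0.17), Nop16 (-0.54 ± 0.11), Fbl (-0.51 ± 0.11), Pes1 (-0.47 ± 0.13), Nhp2 (-0.44 ± 0.12) and Polr1a (-0.40 ± 0.10). Their edgeR adjusted p ran from 0.000289 to 0.017. By role, 3 of the 4 box H/ACA members were lower under IL-27 and the fourth, Gar1, had -0.28 ± 0.10 (edgeR adjusted p = 0.0542), while the 3 higher members belonged to the small subunit and scaffold roles. Without the 2 libraries that stood apart all 4 box H/ACA members were lower under IL-27 (Gar1 at -0.29, edgeR adjusted p = 0.0186). The higher calls were then not limited to the small subunit and scaffold roles, and lower calls occurred in these roles too. All 3 IL-27 libraries lay above all 3 IL-4 libraries in 6 members and below them in 16, against 28.0% and 28.7% of all genes.

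This comparison depended most on the libraries that stood apart. Without them 6 members were called higher and 19 lower under IL-27, where 27.9% and 30.3% of all genes were. The 12 added lower calls were Nop58 (-0.46), Rrp1b (-0.37), Nop56 (-0.35), Bop1 (-0.32), Gar1 (-0.29), Wdr12 (-0.26), Utp20 (-0.26), Rrs1 (-0.22), Heatr1 (-0.19), Ncl (-0.18), Nop2 (-0.18) and Ubtf (-0.16), and the 3 added higher calls were Rrp9 (0.35), Noc3l (0.29) and Noc2l (0.18), with edgeR adjusted p from 9.19e-06 to 0.0359. Lower calls then included small subunit and scaffold genes (Utp20, Heatr1 and Ncl), and higher calls included box C/D and U3 and large subunit genes. Nop10, Dkc1, Nop16, Fbl, Pes1, Nhp2, Polr1a, Gnl3, Nat10 and Nop14 were called in both fits. Leaving out 1 library ended the call of Gnl3 (IL-4 replicate 1, or else IL-27 replicate 1, 2 or 3), Dkc1 (IL-4 replicate 2, IL-27 replicate 1 or 2), Nhp2 (IL-27 replicate 1 or 3), and Nop14 and Pes1 (IL-27 replicate 2 or 3), with edgeR adjusted p from 0.0538 to 0.0716. It brought a call for Bop1 (untreated replicate 2 or IL-4 replicate 3), Gar1 and Noc3l (untreated replicate 2), Nop56 (IL-4 replicate 1) and Polr1b (untreated replicate 3), with edgeR adjusted p from 0.0227 to 0.0387. The number called higher was 1 without IL-27 replicate 2 or 3.

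**Figure D4:**
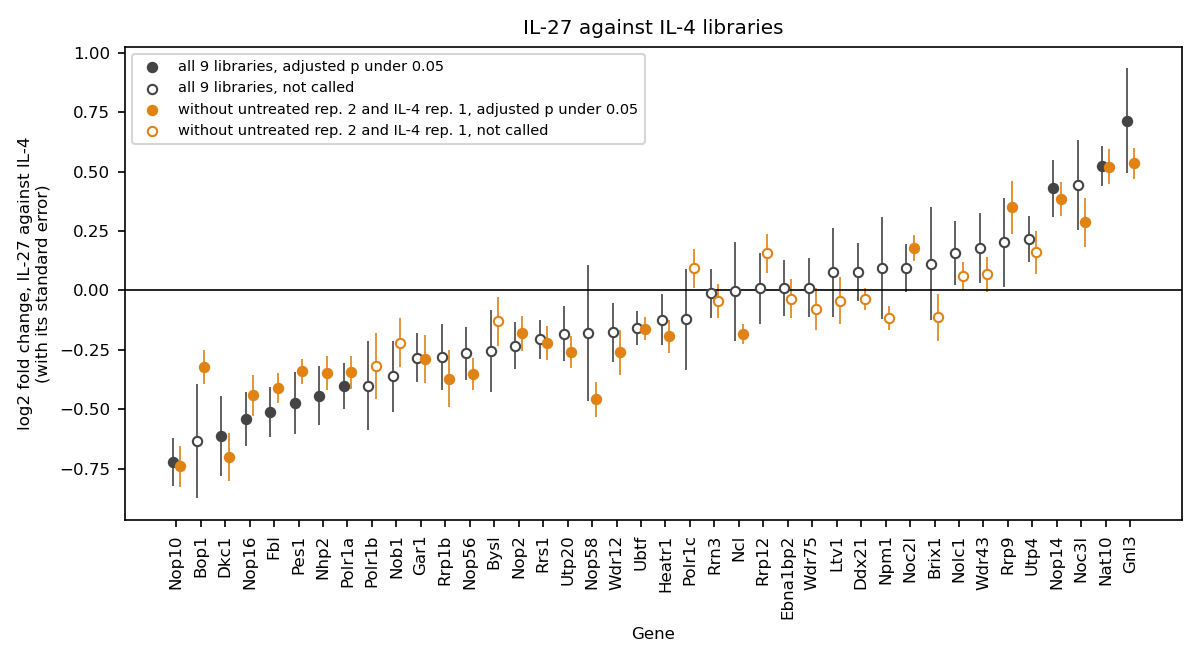
log2 difference between IL-27 and IL-4 libraries for each member, ordered by its value with all 9 libraries (grey) and shown beside the value without untreated replicate 2 and IL-4 replicate 1 (orange), with bars of 1 standard error and filled points for an edgeR adjusted p under 0.05. Nop10 is lowest and Gnl3 highest with all libraries, and more points are filled without the 2 libraries.

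A wider list of 139 other ribosome biogenesis genes, all of them tested, had a positive median under both cytokines. This list too was drawn up with earlier results of these data known. Under IL-4, 41 rose, 2 fell and 96 did not pass, with a median log2 fold change of 0.33. Under IL-27 the counts were 35, 2 and 102, with a median of 0.21. Under both, 17 genes rose, a count for which no share of all genes was computed. Those that fell, named after their values were seen, were Nop53 and Zfp622 under IL-4 (-0.31 ± 0.08 and -0.25 ± 0.08) and Nop53 and Wdr18 under IL-27 (-0.30 ± 0.08 and -0.66 ± 0.17). IL-27 against IL-4 gave 8 higher and 24 lower (median -0.09), both smaller shares than the 18.8% and 21.0% of all genes tested. The shares of all genes called higher were 12.9% under IL-4 and 14.0% under IL-27. Without the 2 libraries that stood apart 79 rose under IL-4 and 70 under IL-27, where 24.0% and 24.2% of all genes did, and 17 were higher and 49 lower under IL-27 than under IL-4, where 27.9% and 30.3% of all genes were. Tsr1, a factor of late 40S maturation, rose 1.74-fold and 1.99-fold (edgeR adjusted p = 9.77e-05 and 1.75e-05), and Rrp8, a methyltransferase of the 28S RNA, rose 2.17-fold under IL-4 (edgeR adjusted p = 1.97e-05) and had a log2 difference of -0.88 ± 0.09 between IL-27 and IL-4 (edgeR adjusted p = 3.17e-05). Snu13, which binds box C/D RNAs first, rose by 0.67 ± 0.08 under IL-4 and had 0.21 ± 0.08 under IL-27 (edgeR adjusted p = 0.000301 and 0.0788). Mrto4 and Pno1, assembly factors of the 60S and 40S subunits, rose by 0.84 ± 0.12 and 0.74 ± 0.12 under IL-27 (edgeR adjusted p = 0.00067 and 0.001).

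Among RNA polymerase I genes of that list, Polr1e rose by 0.76 ± 0.15 and 0.63 ± 0.15 under IL-4 and IL-27 (edgeR adjusted p = 0.00536 and 0.012), and Mybbp1a, a nucleolar repressor of that enzyme, by 0.54 ± 0.08 and 0.37 ± 0.08 (edgeR adjusted p = 0.00112 and 0.00846). Polr1d had 0.04 ± 0.08 and -0.04 ± 0.08 with no call. Tcof1, which encodes treacle, a scaffold of ribosomal gene transcription, rose by 0.61 ± 0.10 under IL-4 (edgeR adjusted p = 0.00167) and had -0.08 ± 0.10 under IL-27 (edgeR adjusted p = 0.605), a difference of -0.69 ± 0.10 between the cytokines (edgeR adjusted p = 0.000402). Naf1, which loads dyskerin onto new box H/ACA particles before Gar1 takes its place, had 0.02 ± 0.18 under IL-4 (edgeR adjusted p = 0.948) and rose by 0.55 ± 0.18 under IL-27 (edgeR adjusted p = 0.0431). This IL-27 call was lost without untreated replicate 2 or 3, any IL-27 library or IL-4 replicate 3 (adjusted p by edgeR of 0.0556 to 0.124). Of the 12 genes of the exosome and other nucleases, 6 rose under IL-4 and 1 (Exosc1, 0.43 ± 0.12) under IL-27. Among all genes tested 12.9% and 14.0% rose in these comparisons. In the same group 4 (Exosc2, Exosc5, Exosc8 and Exosc10) were lower under IL-27 than under IL-4, where 21.0% of all genes were. Exosc8, a subunit of the exosome ring, had the largest of these differences at -0.93 ± 0.12 (edgeR adjusted p = 0.000146).

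Myc stood at 17.4, 20.2 and 15.5 CPM in the untreated, 84.3, 69.1 and 66.0 CPM in the IL-4 and 19.7, 20.2 and 22.4 CPM in the IL-27 libraries. The 3 IL-4 libraries lay above all others, with a 4.13-fold rise (edgeR adjusted p = 6.4e-06), and IL-27 libraries were 3.52-fold lower than IL-4 libraries (edgeR adjusted p = 3.8e-06). Under IL-27 the log2 fold change of Myc was 0.23 ± 0.13 (edgeR adjusted p = 0.217), and 0.33 without the 2 libraries that stood apart (edgeR adjusted p = 0.00266). The member medians against untreated cells, 0.55 under IL-4 and 0.54 under IL-27, thus stood beside Myc log2 fold changes of 2.05 and 0.23. Of the 7 members with an E-box in the promoter window (Nop2 and Rrn3 before the start, and Pes1, Ltv1, Utp20, Utp4 and Wdr43 after it), all 7 were called higher under IL-4, and all but Pes1 under IL-27. Of all 40 members 31 were called higher under IL-4 and 26 under IL-27, and of all genes tested 12.9% and 14.0%. The part of the E-box in these calls was not tested. Between the cytokines Pes1 was lower under IL-27 (-0.47 ± 0.13, edgeR adjusted p = 0.0158) and the other 6 were not called, where 7 of all 40 members and 21.0% of all genes were lower. Without the libraries that stood apart Pes1 (-0.34), Utp20 (-0.26) and Nop2 (-0.18) were lower under IL-27 than under IL-4 (edgeR adjusted p = 6.14e-06, 0.00165 and 0.0359), where 19 of all 40 members and 30.3% of all genes were.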

How the data were processed

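PolyA RNA of 9 libraries, 3 per group, was measured. The authors deposited raw counts per gene, and the submitters' processing notes name fastp, HISAT2, HTSeq and GRCm39, without versions or settings. The authors also deposited FPKM values, which scale counts by gene length and library size, as the file shows; the program used is not given in the labels. Whether counting used strand is not stated.

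Totals of 34577188 to 37951827 counts were scaled by TMM. Genes were filtered with filterByExpr (minimum count 10), which left 12587 of 16200, and tested with edgeR 4.0.16 (R 4.3.3) by quasi-likelihood in 1 fit of all 9 libraries, with 3 comparisons and Benjamini-Hochberg adjustment within each at 0.05. Standard errors were derived from the log2 fold change and its F statistic. DESeq2 1.42.0, RLE factors, other filters, fits of 2 groups, a replicate block, a threshold of 0.01 and leaving out libraries were tried as alternatives.

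Values per library are given for the 2 members of each role with the highest mean FPKM, for the 3 largest and 3 smallest log2 fold changes of each comparison, and for Nop56, which was added after its values were seen. Of the 139 other genes, those with the 3 smallest adjusted p in each comparison are named, with Polr1d, Polr1e, Tcof1, Mybbp1a, Snu13 and Naf1. The members, the lists and the markers were chosen with earlier results of these data known. FPKM served only to compare levels between genes. Promoter sequences are from RefSeq on GRCm38.p6, and no other coordinates are given.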

Additional observations from a re-analysis of the deposited data

How the results depend on the processing

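The median member change stayed above 0 under both cytokines, and below 0 for IL-27 against IL-4, in every alternative run. DESeq2 in place of edgeR called 33 members higher under IL-4 and 26 under IL-27, and 4 of the 139 other genes lower under IL-27. RLE factors changed no count of members, and no scaling moved the median of all genes by more than 0.01. Without a filter on low counts, 1 other gene was lower under IL-4 and 5 were higher for IL-27 against IL-4. With only untreated and IL-4 libraries in the fit, 19 members and 26 other genes were higher, and 1154 of all genes, with 0 other genes and 984 of all genes lower. At an adjusted p under 0.01, members called higher and lower numbered 17 and 0 under IL-4, 17 and 0 under IL-27, and 1 and 4 for IL-27 against IL-4. Other genes then numbered 23 and 0, 14 and 0, and 3 and 9, and all genes 950 and 821, 1044 and 1119, and 1614 and 1675.

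Same-numbered libraries had deviations that correlated from -0.797 to 0.666 over all genes with a mean of 5 CPM or more. The labels do not say what the numbers mark, and the libraries that stood apart enter these values, so a pairing cannot be settled. With the replicate block, 21 members were higher under IL-4 and 23 under IL-27, and 2 higher and 7 lower for IL-27 against IL-4. Other genes under the block were higher in 27 and lower in 0 cases under IL-4, lower in 1 under IL-27 and higher in 3 for IL-27 against IL-4. All genes called higher and lower under the block were 1207 and 1101 under IL-4, 1399 and 1500 under IL-27, and 2034 and 2182 for IL-27 against IL-4, fewer in each case than without it. Not every library correlated best with its own number.

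Without untreated replicate 2 and IL-4 replicate 1, other genes higher numbered 79 under IL-4, 70 under IL-27 (7 lower) and 17 for IL-27 against IL-4 (49 lower), where members numbered 6 higher and 19 lower. All genes called higher and lower were 3054 and 2839 under IL-4 and 3074 and 3215 under IL-27. The cause was not tested. These counts of all genes cover the 12574 genes that passed the filter both with all 9 libraries and without the 2, while the shares in the report cover the 12748 genes that passed the filter without the 2.

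Leaving out 1 library at a time gave 22 to 32 members higher under IL-4, 19 to 28 higher and 0 to 1 lower under IL-27, and 1 to 4 higher and 5 to 9 lower for IL-27 against IL-4. Member medians ran from 0.53 to 0.60, 0.48 to 0.60 and -0.16 to -0.076. Other genes higher and lower ran from 29 to 50 and 0 to 1 under IL-4, 22 to 45 and 0 to 5 under IL-27, and 3 to 9 and 13 to 29 for IL-27 against IL-4. All genes higher and lower ran from 1212 to 1821 and 1064 to 1832, 1239 to 2217 and 1334 to 2382, and 1866 to 2626 and 1952 to 3042.

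Signs turned only for differences that had no call with all 9 libraries, given as log2 values. For IL-4 against untreated, the sign turned without both libraries that stood apart for Polr1d (-0.012) and Naf1 (-0.056). Values lay on both sides of 0 over the fits without 1 library for Polr1c (-0.40 to 0.092), Polr1d (-0.0014 to 0.073) and Naf1 (-0.16 to 0.14). For IL-27 against untreated, the sign turned without both libraries that stood apart for Bop1 (0.21). Values lay on both sides of 0 over the fits without 1 library for Tcof1 (-0.13 to 0.018), Bop1 (-0.15 to 0.21) and Polr1b (-0.10 to 0.21). For IL-27 against IL-4, the sign turned without a filter on low counts for Rrp12 (-0.0038) and Ebna1bp2 (-0.00095). It turned with CPM over 1 in 3 libraries for Ncl (0.0063). It turned without both libraries that stood apart for Polr1c (0.093), Npm1 (-0.12), Ddx21 (-0.036), Wdr75 (-0.078), Ltv1 (-0.044), Ebna1bp2 (-0.035) and Brix1 (-0.11). Values lay on both sides of 0 over the fits without 1 library for Polr1c (-0.23 to 0.10), Npm1 (-0.11 to 0.27), Ddx21 (-0.029 to 0.14), Wdr75 (-0.072 to 0.10), Ltv1 (-0.037 to 0.25), Ebna1bp2 (-0.053 to 0.073), Brix1 (-0.11 to 0.27), Nop58 (-0.45 to 0.028), Ncl (-0.18 to 0.11), Rrp12 (-0.065 to 0.16) and Rrn3 (-0.044 to 0.028).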
